A study of Mus musculus with 31 samples.

Results

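The genes described here are 10 genes of matricellular proteins, collagen crosslinking and fibrosis in masseter muscle (MM): Postn, Tnc, Thbs1, Thbs2, Sparc, Fn1, Lox, Loxl2, Tgfb1 and Acta2. They were chosen by name, with earlier results of these data known. Their rows were read from the count tables of all 31 libraries, which list 22609 gene symbols. At 6d after 10U of collagenase type 2 (Col), 8 of the 10 genes were up-regulated against the vehicle group, led by Tnc, Postn and Lox. Of all genes tested, 14.0% were called higher there. At the earliest 10U time point none was called (1.14% of all genes tested were called higher and 1.08% lower). Thbs1 lay above every vehicle-treated mouse there and Acta2 below every one, as did 10.7% and 13.2% of all genes tested. At the latest 10U time point 3 of 4 mice were within the vehicle range for Postn and Tnc and 1 mouse lay far above it. None of the 10 genes was called after complete Freund's adjuvant (CFA) or after 0.2U Col. No gene of any kind was called by the main test (edgeR) at 1d post-CFA or in either 0.2U group. At 5d post-CFA, 1.06% of all genes tested were called higher and 0.0428% lower.

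The extracellular matrix of muscle is built of collagens and of the glycoprotein fibronectin, and a further class of secreted proteins, the matricellular proteins, binds this scaffold and the receptors on cells without being a structural part of it. Periostin, tenascin-C, the thrombospondins and SPARC belong to this class, and in adult muscle they are known for being made at sites of injury. Latent TGF-beta is released from the matrix, drives fibroblasts towards myofibroblasts that contain smooth muscle actin, and induces matrix genes, while lysyl oxidases link collagen chains covalently and stiffen the scar.

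MM was taken from the injected side of adult male C57BL/6J mice, 1 library per mouse, and the authors sequenced poly(A) RNA from stranded libraries. The CFA experiment had 3 mice at 1d, 3 mice at 5d and 3 vehicle-treated mice. The Col experiment had 4 mice in each of the 0.2U groups labelled 1C and RPC, 4, 3 and 4 mice in successive 10U groups, and 3 vehicle-treated mice. The 10U groups carry the days 2, 6 and 12 in the labels, where the study's text gives another day for the first and the last, and they are called early, 6d and late here. How the names 1C and RPC map onto the 0.2U collection days (1d and 5d) is not stated. The vehicle was PBS, and neither source says on which day these controls were collected. The dissection avoided the tendons at the zygomatic arch and the mandible as far as possible, and Col was a crude preparation. All 5 Col comparisons share the same 3 vehicle-treated mice, and both CFA comparisons share theirs.

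The sequences before the start sites of Postn, Tnc and Acta2 are shown because Postn and Tnc had the largest fold changes at 6d and because Acta2 followed another course than they did. Promoter entries were found in the RefSeq table of build GRCm38.p6 for 6 of the 10 genes (Postn, Tnc, Thbs2, Sparc, Tgfb1 and Acta2), and the 250 bases before each start matched 1 place each in build NCBIM37 (mm9), whose coordinates are given. Postn and Tnc had 2 entries each, and the stretch shown is that of the entry nearer to the gene. The Postn stretch lies at chr3:54164779-54165028 on the plus strand. The Tnc stretch lies at chr4:63707971-63708220 on the minus strand, outside the mm9 gene model of Tnc given further on. The Acta2 stretch lies at chr19:34329864-34330113 on the minus strand. Capitals mark the motifs searched.
Postn: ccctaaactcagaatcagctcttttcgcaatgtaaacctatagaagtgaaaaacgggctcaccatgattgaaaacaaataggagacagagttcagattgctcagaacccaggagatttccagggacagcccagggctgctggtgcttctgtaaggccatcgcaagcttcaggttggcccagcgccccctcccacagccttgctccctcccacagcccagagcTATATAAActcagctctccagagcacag
Tnc: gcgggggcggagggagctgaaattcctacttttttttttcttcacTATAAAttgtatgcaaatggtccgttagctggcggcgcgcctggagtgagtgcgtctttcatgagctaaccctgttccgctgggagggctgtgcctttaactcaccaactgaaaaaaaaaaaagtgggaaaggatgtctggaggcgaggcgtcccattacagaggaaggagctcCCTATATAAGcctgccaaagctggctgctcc
Acta2: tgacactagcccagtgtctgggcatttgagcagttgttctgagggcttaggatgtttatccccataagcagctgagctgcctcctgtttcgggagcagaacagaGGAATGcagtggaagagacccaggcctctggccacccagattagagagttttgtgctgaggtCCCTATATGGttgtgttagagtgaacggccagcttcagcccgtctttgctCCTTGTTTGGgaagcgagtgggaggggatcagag
The motifs were TATATAA and TATAAA on the gene's strand, and TGANTCA (the letters of AP-1 sites), CATTCC (those of TEAD sites), the CArG box and the CArG box with up to 1 mismatch on both strands. TATATAA was present in the Postn stretch at -28 to -22 and in the Tnc stretch at -29 to -23 relative to the start, overlapping TATAAA in Postn and a mismatched CArG box in Tnc, and 2.06% of 32841 promoters of the same length held it. TATAAA, in Postn at -26 to -21 and in Tnc also at -205 to -200, was in 7.59% of them. The Acta2 stretch held CArG boxes with 1 mismatch at -84 to -75 and -34 to -25. Of all promoters, 18.6% held at least 1. The Acta2 stretch also held the reverse complement of CATTCC at -146 to -141, against 12.6% of promoters with CATTCC on either strand. TGANTCA, found in 6.75% of promoters, and the exact CArG box, in 1.47%, were in none of these 3 stretches, and the entries of Thbs2, Sparc and Tgfb1 held none of the motifs. The other Postn entry also held none of the motifs. The other Tnc entry held TATAAA at -126 to -121 alone, so TATATAA was in 1 of the 2 entries of each gene. These matches describe letters in a window of 250 bases.

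Reads counted on genes numbered from 14843778 to 29076671 per library (median 20834472), and values per mouse are CPM, gene counts scaled to the same library total with TMM factors over all 31 libraries. Replicates are separate mice. Summed CPM of 8 skeletal muscle genes ranged from 28937 to 181149, so muscle transcripts were abundant in every library. Salivary gland genes, 9 in the list, summed to over 10000 CPM in 14 libraries of 6 groups: all 3 mice at 5d post-CFA, all 4 RPC mice, 3 of 4 early 10U mice, 2 of 3 Col vehicle mice, 1 CFA vehicle mouse and 1 1C mouse. Reads set aside as ambiguous were 0.680% to 0.883% of the number counted on genes in the 11 libraries of 10U Col. They were 0.147% to 0.318% in the other 20. A difference in counting between the 10U libraries and their vehicle group cannot be told apart from the treatment. How the strand of reads entered the counting is not given in the sources used here. Of the 10 genes, Tnc and Fn1 have exons that overlap a gene of the opposite strand in GENCODE vM1, and the partner of Fn1, Apol7d, did not exceed 0.110 CPM in any library. The partner of Tnc, 8030451A03Rik, is not among the counted symbols, so its level is not known. In bulk tissue, fewer cells of a type and less RNA per cell cannot be told apart.

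In vehicle-treated mice the matrix genes differed widely between single animals. Postn encodes periostin, which binds collagen and integrins, and lies at chr3:54165031-54194961 of mm9. Its level was 4.25, 25.0 and 439.6 CPM in the 3 CFA vehicle mice and 446, 15.2 and 588 CPM in the 3 Col vehicle mice, so that the highest mouse was 103 times the lowest in the one group and 38.7 times in the other. The low mice, CFA vehicle 1 and 2 and Col vehicle 2, were also the low ones for Tnc (4.33, 6.51 and 71.8 CPM in CFA vehicle and 86.5, 13.7 and 99.8 CPM in Col vehicle). Acta2 spread least among the Col vehicle mice, at 175, 184 and 228 CPM. The summed CPM of 6 tendon markers stood in the same order as Postn in the CFA vehicle mice, at 58.8, 151 and 576, and the 7 bone markers likewise, at 4.91, 8.90 and 149.6. In the Col vehicle mice the same lists gave 1429, 105 and 864 for tendon and 111, 13.1 and 176 for bone, again lowest in mouse 2, and 8 fibroblast markers gave 1894, 712 and 1487. The part of these tissues in the levels of the 10 genes was not tested. Between the vehicle groups none of the 10 genes was called (0.0426% of 14070 genes tested were called higher in Col vehicle and 0 lower), with log2 differences of 0.24 for Lox to 1.26 for Tnc. Acta2 alone lay in all 3 Col vehicle mice above all 3 CFA vehicle mice (74.9, 150.0 and 154 CPM), as did 2.52% of all genes tested. Without the 3 vehicle libraries over 10000 CPM of salivary gland genes, 2 CFA vehicle mice and 1 Col vehicle mouse were left. Calls from that fit assume that the Col mouse varied like the CFA mice. They are given further on, beside those over all genes. A block for the replicate number left 0 genes called between the vehicle groups.

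**Figure D1:**
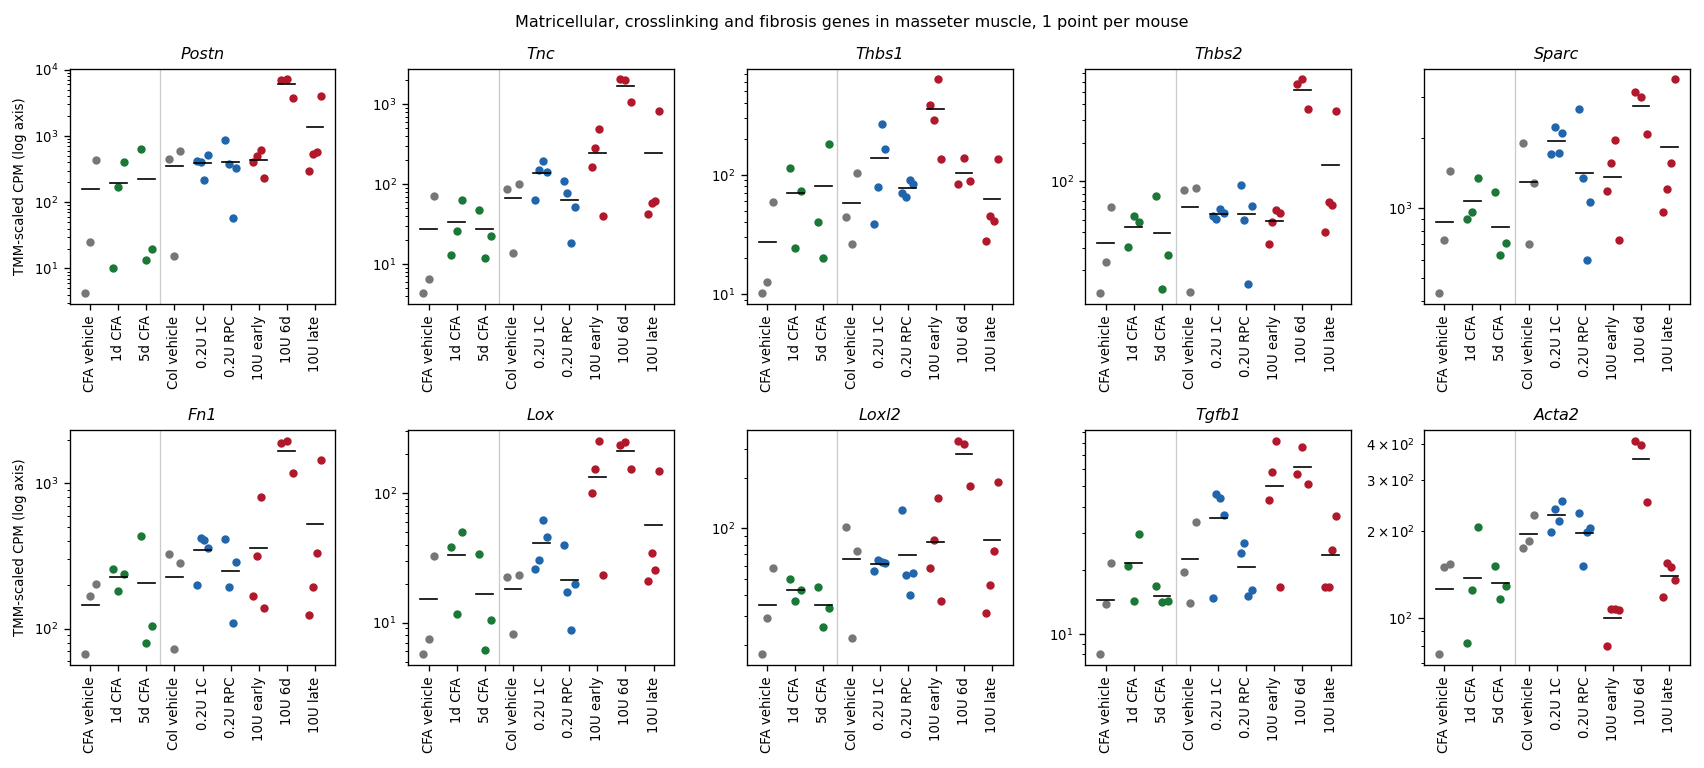
TMM-scaled CPM of the 10 genes (log axes, 1 panel per gene) in 31 mice, with 1 point per mouse and a black line at each group mean; grey points are vehicle mice, green CFA, blue 0.2U Col and red 10U Col. At 6d post-10U Col, 9 of the 10 genes lie above all 3 Col vehicle mice, as do 25.1% of all genes tested. Thbs1 peaks in the early 10U group, and 1 late mouse stands above the other 3 in every panel but that of Acta2.

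At 6d post-10U Col the matrix genes were compared with the vehicle group. Of the 10 genes tested, 8 were up-regulated and 0 down-regulated, where 14.0% of 14281 genes tested were called higher and 13.3% lower by the quasi-likelihood test of edgeR (calls are at an adjusted p under 0.05, by Benjamini and Hochberg over all genes). The median log2 fold change of the 10 genes was 2.48, and that of all genes tested was 0.01. For 9 of the 10 genes the 3 mice at 6d lay above all 3 vehicle mice, and 25.1% of all genes tested did so.

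Among the matricellular genes, Tnc had the largest change. Tnc encodes tenascin-C, a large oligomeric glycoprotein that binds fibronectin, integrins and Toll-like receptor 4, and its mm9 gene model spans chr4:63620819-63681760. It reached 2041, 2021 and 1082 CPM in the 3 mice at 6d against 86.5, 13.7 and 99.8 CPM in vehicle. The lowest mouse at 6d was about an order of magnitude above the highest vehicle mouse, and the log2 fold change was 4.68 ± 0.76 (SE; edgeR adjusted p = 0.00774). Postn was at 7090.1, 7103 and 3784 CPM at 6d against 446, 15.2 and 588 CPM in vehicle, with no overlap. The log2 fold change of Postn was 4.09 ± 1.12 (SE; edgeR adjusted p = 0.0340), with the largest error of the 10 genes, and vehicle mouse 2 lay far below the other 2. Thbs2 (chr17:14802507-14831269) encodes thrombospondin-2, which binds collagen fibrils and proteases of the matrix. It was at 572, 625 and 364 CPM at 6d against 85.3, 13.5 and 89.1 CPM in vehicle. The groups did not overlap, and the log2 fold change was 3.05 ± 0.65 (SE; edgeR adjusted p = 0.0172).

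The 2 other matricellular genes were not called. Thbs1 (chr2:117937612-117952869) encodes thrombospondin-1, a platelet and stromal protein that can release active TGF-beta from its latent form. It was at 83.3, 138 and 88.8 CPM at 6d and 44.0, 26.6 and 103 CPM in vehicle, so the groups overlapped, and the log2 difference was 0.82 ± 0.48 (SE; edgeR adjusted p = 0.222). Sparc (chr11:55208002-55233582) encodes a collagen-binding glycoprotein with a high level in every mouse. It was at 3152, 3011 and 2078 CPM at 6d and 1908, 704 and 1289 CPM in vehicle. The 3 mice at 6d lay above the 3 vehicle mice, but the log2 difference of 1.08 ± 0.42 (SE; edgeR adjusted p = 0.0877) missed the threshold. DESeq2 called Sparc and not Thbs1.

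Fn1 (chr1:71632094-71699774), the gene of fibronectin, the scaffold on which collagen is laid down, was at 1897, 1964 and 1169 CPM at 6d against 326, 72.6 and 281 CPM in vehicle. All 3 mice were above vehicle, with a log2 fold change of 2.89 ± 0.57 (SE; edgeR adjusted p = 0.0134). Lox and Loxl2 encode copper-dependent amine oxidases that start the crosslinks of collagen, and Lox also acts on elastin. Lox (chr18:52675723-52689521) was at 235, 247 and 154 CPM at 6d against 22.5, 8.22 and 23.4 CPM in vehicle, without overlap. The log2 fold change of Lox was 3.55 ± 0.42 (SE; edgeR adjusted p = 0.00311), with the smallest adjusted p of the 10 genes. Loxl2 (chr14:70008978-70095640) was at 335, 319 and 180.1 CPM at 6d against 102, 22.2 and 73.0 CPM in vehicle. Its groups were also apart, with a log2 fold change of 2.08 ± 0.52 (SE; edgeR adjusted p = 0.0264). The fold change of Lox was 11.7 and that of Loxl2 4.24.

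Tgfb1 (chr7:26472021-26490096), which encodes the cytokine TGF-beta 1, was at 56.7, 76.6 and 51.2 CPM at 6d against 19.6, 14.0 and 33.8 CPM in vehicle. The lowest mouse at 6d was above the highest vehicle mouse, and the log2 fold change was 1.44 ± 0.34 (SE; edgeR adjusted p = 0.0219). Acta2 (chr19:34315580-34329826) encodes the actin of vascular smooth muscle and of myofibroblasts. It was at 411, 399 and 253 CPM at 6d against 175, 184 and 228 CPM in vehicle, and the lowest mouse at 6d was just above the highest vehicle mouse. Its log2 fold change of 0.85 ± 0.25 (SE; edgeR adjusted p = 0.0426) was the smallest of the 8 called genes, and it alone of the 8 missed the thresholds of the study, a fold over 2 and an RPKM (CPM per kilobase of exon) over 1.

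How many of the 10 genes were called at 6d depended on single mice. Without mouse 1, 2 or 3 of the 6d group, 2, 3 and 7 genes were called, and without vehicle mouse 1, 2 or 3, 5, 7 and 9 genes, always as higher. Lox and Tnc were called in all 6 of these fits. The calls over all genes also moved with the mouse left out, and their range is given further on. Without the 2 vehicle libraries over 10000 CPM of salivary gland genes, 1 vehicle mouse was left. Calls from that fit assume that it varied like the 6d mice. At 6d the salivary list summed to 11.1 to 33.7 CPM against 89.8, 143837 and 40107 CPM in vehicle.

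Other genes of the same pathways moved less uniformly at 6d, and their changes are given as log2 fold change ± SE here and at the other times. Of 20 genes of collagen processing and crosslinking, 11 rose and 1 fell, with a median log2 fold change of 1.11. Loxl1, a further lysyl oxidase, rose by 2.56 ± 0.26, adjusted p = 0.00212 (160.3 to 263 against 28.8 to 43.3 CPM), and Adamts14, which trims procollagen, by 2.91 ± 0.40, adjusted p = 0.00475. Serpinh1, the collagen chaperone, rose by 1.91 ± 0.29, adjusted p = 0.00643, and Plod2, which hydroxylates the lysines of crosslinks, by 3.61 ± 0.64, adjusted p = 0.0101 (79.0 to 151 against 2.22 to 16.6 CPM), all by edgeR. The 1 gene that fell was Pcolce2, an enhancer of procollagen cleavage, named after its value was seen.

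Of 22 genes of the TGF-beta pathway, 10 rose and 2 fell, with a median log2 fold change of 0.54. Tgif1, a repressor of SMAD targets, changed by 2.02 ± 0.20, adjusted p = 0.00206 in edgeR, Tgfb3 by 1.53 ± 0.24, adjusted p = 0.00659, and Ltbp1, which tethers latent TGF-beta to the matrix, by 1.44 ± 0.23, adjusted p = 0.00697. Smad3, a transducer of the signal, fell, with a log2 fold change of -1.58 ± 0.27, adjusted p = 0.00927 in edgeR. Of 14 matrix receptor genes, 5 rose and 2 fell. Itga5, the fibronectin receptor subunit, rose by 2.08 ± 0.31, adjusted p = 0.00616 in edgeR (73.9 to 144 against 19.3 to 33.3 CPM), while Sdc1 rose by 1.07 ± 0.23, adjusted p = 0.0167, Itgb1 by 0.94 ± 0.21, adjusted p = 0.0198 and Itgav by 0.82 ± 0.21, adjusted p = 0.0276.

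Of 19 other matricellular genes tested of 20 listed, 3 rose and 4 fell, with a median log2 fold change of -0.30. Tgfbi rose by 1.67 ± 0.33, adjusted p = 0.0142 in edgeR, whereas Smoc1 (-1.14 ± 0.24, adjusted p = 0.0167), Tnxb (-1.65 ± 0.39, adjusted p = 0.0217) and Spock2 (-1.23 ± 0.32, adjusted p = 0.0286) fell. Of 12 smooth muscle contractile genes, 1 rose and 3 fell, beside the higher Acta2. Myh11, the smooth muscle myosin, fell (-2.01 ± 0.28, adjusted p = 0.00485 in edgeR; 32.5 to 51.0 against 132 to 225 CPM), as did Mylk (-0.92 ± 0.23, adjusted p = 0.0250) and Myl9 (-0.57 ± 0.17, adjusted p = 0.0450), and Cald1, which non-muscle cells also express, rose (0.76 ± 0.23, adjusted p = 0.0463).

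**Figure D2:**
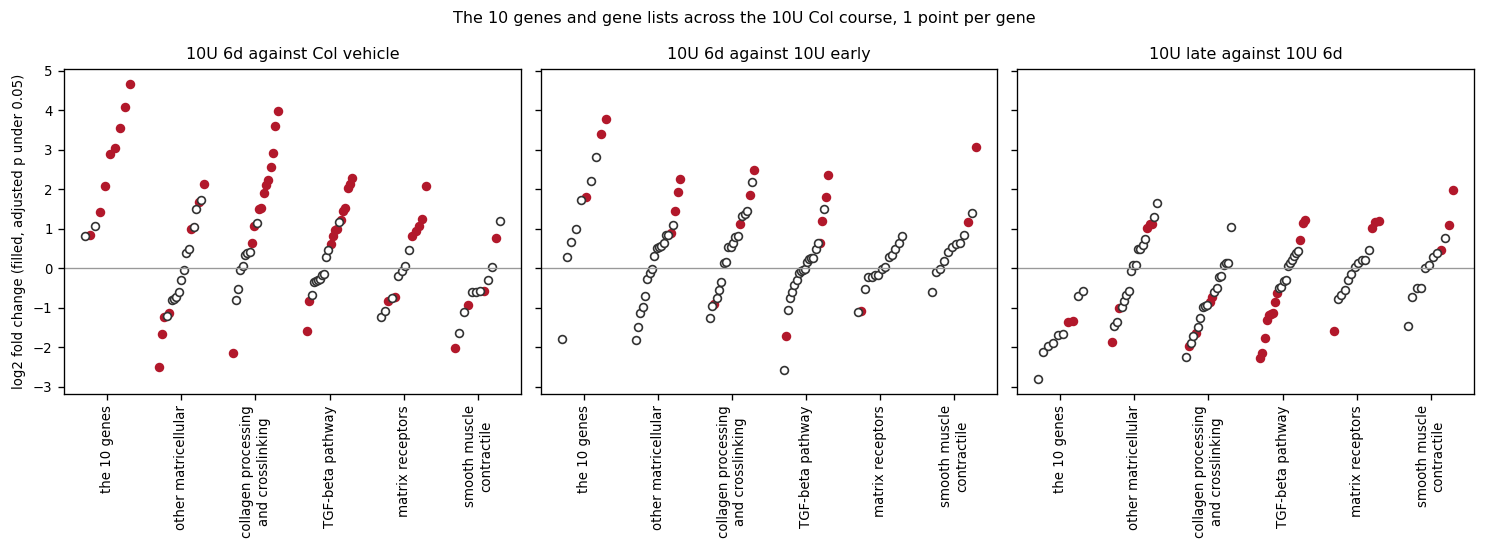
log2 fold changes of the 10 genes and of 5 gene lists (1 point per gene, ordered by value within a list, filled at an adjusted p under 0.05) at 6d against Col vehicle, 6d against early, and late against 6d post-10U Col. At 6d against vehicle all 10 genes lie above 0, while the other matricellular and the smooth muscle genes spread to both sides, and late against 6d all 10 lie below 0.

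Markers of other cells moved with the 10 genes at 6d in part. The 8 macrophage markers summed to 674, 1040.0 and 531 CPM at 6d against 131, 51.3 and 208 CPM in vehicle, and 6 of the 8 were called higher. The 8 fibroblast markers summed to 1269, 1205 and 1179.7 CPM at 6d, inside the vehicle range of 712 to 1894 CPM, and 2 of the 8 were called higher. Pericyte markers were at 446 to 573 CPM at 6d and 599 to 931 CPM in vehicle, with 0 of 5 higher and 1 lower. Tendon markers were lower in sum at 6d than in 2 of the 3 vehicle mice (136, 166 and 209 CPM), with 1 of 6 called higher and 3 lower. Bone markers summed to 32.1, 4.20 and 6.68 CPM at 6d. No gene of the fibroblast, macrophage, pericyte or tendon list was at 0 throughout either group. Of the markers tested for other tissues, 1 of 6 endothelial, 1 of 4 platelet, 1 of 4 cartilage, 3 of 6 bone, 4 of 4 salivary gland, 5 of 5 keratinocyte, 1 of 5 adipocyte and 2 of 8 skeletal muscle markers were called lower at 6d and 0 higher. The skeletal muscle markers summed to 35434 to 61127 CPM at 6d, below all 3 vehicle mice. The part of macrophages and of the other cell types in the changes of the 10 genes was not tested.

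**Figure D3:**
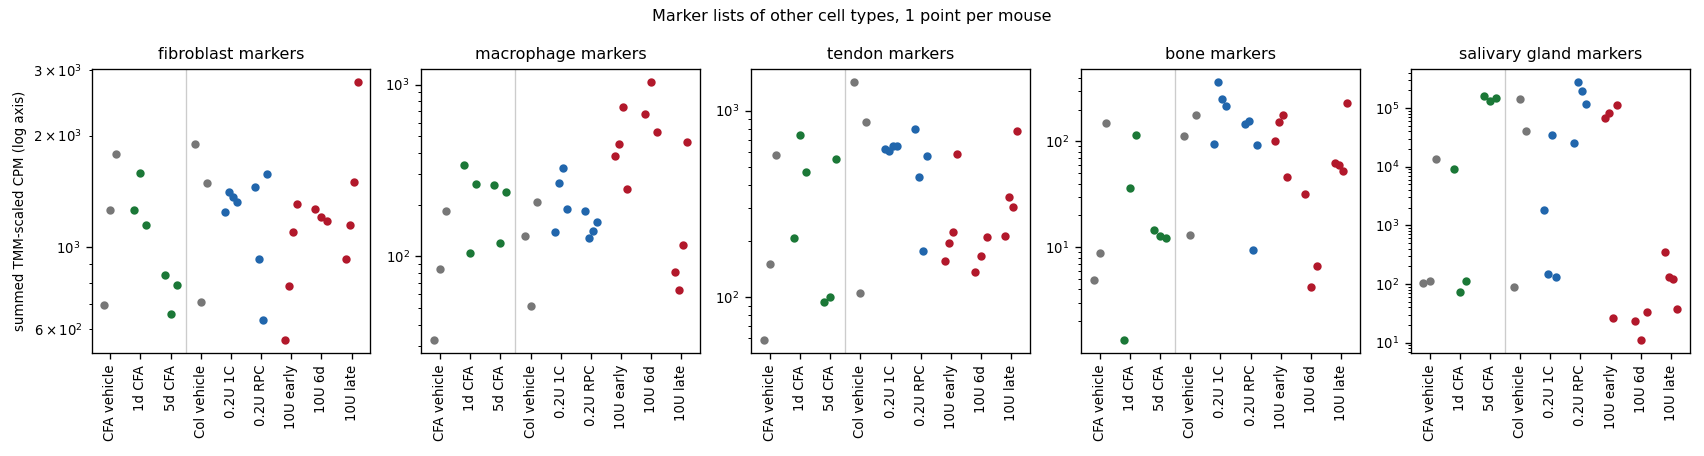
Summed TMM-scaled CPM (log axes) of marker lists for fibroblasts, macrophages, tendon, bone and salivary gland, 1 point per mouse, in the 9 groups; grey is vehicle, green CFA, blue 0.2U Col and red 10U Col. Macrophage markers at 6d post-10U Col lie above the 3 Col vehicle mice while fibroblast markers lie within their range, and salivary gland markers span several orders of magnitude between mice.

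In the early 10U group the question was which of the genes responded first. None of the 10 was called against vehicle, where 1.14% of 14373 genes tested were called higher and 1.08% lower by edgeR, and 3 of the 10 had an unadjusted p under 0.05. Thbs1 was at 383, 286, 625 and 136 CPM in the 4 early mice, all above the vehicle mice, with a log2 difference of 2.62 ± 0.64 (SE; edgeR adjusted p = 0.0582). In every early mouse above every vehicle mouse were 10.7% of all genes tested, and below them 13.2%. Lox was at 99.8, 154, 253 and 23.3 CPM, where 3 mice were above vehicle and mouse 4 was within its range, and the log2 difference was 2.88 ± 0.77 (SE; edgeR adjusted p = 0.0646). Tnc was at 163, 279, 488 and 40.4 CPM and Tgfb1 at 42.9, 58.4, 81.9 and 16.6 CPM, again with mouse 4 inside the vehicle range. Their log2 differences were 1.86 ± 0.89 (SE; edgeR adjusted p = 0.180) and 1.15 ± 0.52 (SE; edgeR adjusted p = 0.165).

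Acta2 differed in the other direction in the early group. It was at 79.8, 108, 107 and 107 CPM in the 4 mice, all below the 3 vehicle mice, with a log2 difference of -0.94 ± 0.20 (SE; edgeR adjusted p = 0.0506). Of the 12 smooth muscle contractile genes, 2 were called lower and 0 higher: Myl9 (-1.40 ± 0.26, adjusted p = 0.0482 in edgeR) and Tagln, an actin-binding protein (-1.14 ± 0.21, adjusted p = 0.0482). Pericyte markers summed to 297 to 622 CPM in the early group and 599 to 931 CPM in vehicle. Macrophage markers lay in all 4 early mice above all 3 vehicle mice, at 246 to 745 against 51.3 to 208 CPM in sum, and 0 of the 8 were called. Skeletal muscle markers lay below all 3 vehicle mice, at 28937 to 59703 against 96126 to 144368 CPM, and 0 of the 8 were called. The part of these cell types in the differences of the early group was not tested. Postn (398, 497, 607 and 233 CPM), Thbs2 (32.3, 47.8, 59.1 and 56.3 CPM), Sparc (733 to 1959 CPM), Fn1 (139.6 to 809 CPM) and Loxl2 (36.6 to 152 CPM) overlapped with vehicle in the early group.

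The calls of this comparison depended on early mouse 4. Without it, 5 of the 10 genes were called, Lox (log2 difference 3.23, edgeR adjusted p = 0.00386), Thbs1 (log2 difference 2.89, edgeR adjusted p = 0.00817), Tgfb1 (log2 difference 1.43, edgeR adjusted p = 0.0241) and Tnc (log2 difference 2.21, edgeR adjusted p = 0.0499) as higher and Acta2 (log2 difference -0.99, edgeR adjusted p = 0.00829) as lower. Calls over all genes numbered 319 with all 7 mice, 5143 without this mouse, and 12 to 605 without each of the other 6. Its macrophage markers summed to 246 CPM against 384, 454 and 745 CPM in the other 3 mice. The salivary list summed to 67812, 82558, 26.6 and 111839 CPM in the 4 early mice. The tendon (586 CPM), skeletal muscle (59703 CPM), fibroblast (1306 CPM), pericyte (622 CPM) and adipocyte (68.1 CPM) markers of mouse 4 were the highest of the 4. Its endothelial (541 CPM), platelet (39.2 CPM), cartilage (23.6 CPM) and bone (45.9 CPM) markers were the lowest. Its reads on genes numbered 27573542, against 15759560 to 16753167 in the other 3 early mice. The part of these in its levels was not tested. Without vehicle mouse 3, 1 gene was called, Thbs1 (log2 difference 3.32, edgeR adjusted p = 0.0492). With all 7 mice, DESeq2 called Thbs1 and Lox as higher and Acta2 as lower, and 1 edgeR fit shared by all 31 libraries called the same 3 genes. Both also called more of all genes than the main fit, with counts given further on.

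From the early group to 6d, 3 of the 10 genes rose and 0 fell, where 4.68% of 14513 genes tested were called higher and 4.05% lower by edgeR. Thbs2 rose from 48.9 ± 12.0 CPM (SD, n = 4) to 520.2 ± 138 CPM (SD, n = 3), and the log2 difference was 3.39 ± 0.29 (SE; edgeR adjusted p = 0.00185). Postn rose from 434 ± 159 CPM (SD, n = 4) to 5993 ± 1913 CPM (SD, n = 3), and the log2 difference was 3.77 ± 0.46 (SE; edgeR adjusted p = 0.00557). Acta2 rose from 100.4 ± 13.7 CPM (SD, n = 4) to 354 ± 88.1 CPM (SD, n = 3), and the log2 difference was 1.80 ± 0.22 (SE; edgeR adjusted p = 0.00590). These 3 genes, and also Tnc, Sparc, Fn1 and Loxl2, lay in all 3 mice at 6d above all 4 early mice, and 12.9% of all genes tested did so.

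The genes with the largest differences in the early group were not called between the times. Thbs1 was lower at 6d than early in value, with a log2 difference of -1.80 ± 0.48 (SE; edgeR adjusted p = 0.0582), and 1 mouse at 6d reached the lowest early mouse. Lox (log2 difference 0.67 ± 0.63, edgeR adjusted p = 0.557) and Tgfb1 (log2 difference 0.29 ± 0.45, edgeR adjusted p = 0.734) overlapped between the times. Tnc (log2 difference 2.81 ± 0.72, edgeR adjusted p = 0.0506), Loxl2 (log2 difference 1.73 ± 0.46, edgeR adjusted p = 0.0562), Fn1 (log2 difference 2.22 ± 0.61, edgeR adjusted p = 0.0639) and Sparc (edgeR adjusted p = 0.149) did not pass the threshold. Without early mouse 3, Tnc, Fn1 and Loxl2 were also called, and without early mouse 4, Tnc, Fn1 and Loxl2 as higher and Thbs1 as lower. Without the 3 early libraries over 10000 CPM of salivary gland genes, 1 early mouse remained, assumed to vary like the 6d mice, and Thbs2 was called higher and Thbs1 lower. DESeq2 called 8 of the 10 genes with all 7 mice, adding Tnc, Sparc, Fn1 and Loxl2 as higher and Thbs1 as lower. It also called more of all genes than edgeR, so the edgeR shares above are not its background. Calls over all genes moved with the mouse left out as well, and these counts are given further on.

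Other matrix genes also rose between the early group and 6d. Of the 20 other matricellular genes 4 rose and 0 fell, among them Thbs3, another thrombospondin (2.27 ± 0.25, adjusted p = 0.00469 in edgeR; 44.4 to 78.4 against 9.35 to 15.9 CPM), Wisp1, a CCN protein (1.93 ± 0.37, adjusted p = 0.0238), Tnn, a tenascin (1.44 ± 0.32, adjusted p = 0.0362), and Sparcl1, a relative of SPARC (0.89 ± 0.22, adjusted p = 0.0482). Of the TGF-beta pathway genes, 4 of 22 rose and 1 fell. Ltbp1 (2.37 ± 0.21, adjusted p = 0.00190 in edgeR), Tgfb2 (1.19 ± 0.12, adjusted p = 0.00389) and Tgfb3 (1.81 ± 0.20, adjusted p = 0.00469) rose, and Smad7, an inhibitor of the receptors, fell (-1.72 ± 0.30, adjusted p = 0.0170). Of the 20 genes of collagen processing 3 rose and 1 fell, Adamts14 (2.48 ± 0.39, adjusted p = 0.0133 in edgeR), Adamts2 (1.86 ± 0.32, adjusted p = 0.0166) and Bmp1 (1.12 ± 0.28, adjusted p = 0.0466), all of which cleave procollagen, as higher and Loxl4 (-0.90 ± 0.22, adjusted p = 0.0431) as lower. Of the 14 matrix receptor genes 0 rose and 1 fell, Sdc4 (-1.09 ± 0.24, adjusted p = 0.0379 in edgeR). Of the 12 smooth muscle genes 2 rose and 0 fell, Actg2 (3.07 ± 0.50, adjusted p = 0.0148 in edgeR) and Tagln (1.18 ± 0.24, adjusted p = 0.0274).

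At the late 10U time point none of the 10 genes was called against vehicle (0.762% of 14176 genes tested were called higher and 0.466% lower by edgeR, and 1 of the 10 had an unadjusted p under 0.05). Postn was at 300.3, 534, 579 and 4069 CPM in the 4 late mice, and Tnc at 42.7, 58.9, 60.7 and 811 CPM. In both, 3 mice lay within the vehicle range and mouse 4 far above it. The log2 difference from vehicle was 2.04 ± 1.28 (SE; edgeR adjusted p = 0.444) for Postn and 1.95 ± 1.22 (SE; edgeR adjusted p = 0.444) for Tnc, and without mouse 4 that of Tnc was -0.29, that of Thbs2 -0.10 and that of Fn1 -0.04. The same mouse was highest for Thbs1 (28.1, 45.6, 41.3 and 136 CPM), Thbs2 (39.8, 69.3, 64.5 and 357 CPM), Sparc (966, 1213, 1565 and 3574 CPM), Fn1 (125, 193, 331 and 1436 CPM), Lox (21.1, 34.7, 25.2 and 147 CPM), Loxl2 (31.2, 46.1, 73.3 and 190.2 CPM) and Tgfb1 (16.7, 16.7, 24.9 and 36.2 CPM). It was not highest for Acta2, at 118, 155, 150.2 and 135 CPM, where all 4 late mice lay below the 3 vehicle mice, with a log2 difference of -0.44 (8.51% of all genes tested lay below vehicle in this way).

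Late mouse 4 also differed in its markers. Its fibroblast markers summed to 2796 CPM against 929 to 1502 CPM in the other 3 late mice, its macrophage markers to 462 CPM against 63.8 to 116 CPM, and its bone markers to 230.3 CPM against 52.5 to 62.7 CPM. Its tendon markers summed to 773 CPM against 213 to 342 CPM, and its skeletal muscle markers, the lowest of the 4, to 50709 CPM against 90405 to 115954 CPM. The part of these cells and tissues in its matrix gene levels was not tested.

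Against 6d, all 10 genes were lower in mean at the late time point, and 2 of them were called lower by edgeR, where 13.0% of 14344 genes tested were called lower and 13.4% higher. Acta2 fell from 354 ± 88.1 CPM (SD, n = 3) to 139.7 ± 16.8 CPM (SD, n = 4), and the log2 difference was -1.32 ± 0.21 (SE; edgeR adjusted p = 0.0107). Tgfb1 fell from 61.5 ± 13.3 CPM (SD, n = 3) to 23.6 ± 9.22 CPM (SD, n = 4), and the log2 difference was -1.36 ± 0.29 (SE; edgeR adjusted p = 0.0190). Besides these, Tnc, Thbs2 and Lox were in all 4 late mice below all 3 mice at 6d, and 19.3% of all genes tested were so. Their log2 differences were -2.80 ± 1.08 (SE; edgeR adjusted p = 0.0853) for Tnc, -1.96 ± 0.73 (SE; edgeR adjusted p = 0.0795) for Thbs2 and -1.88 ± 0.67 (SE; edgeR adjusted p = 0.0704) for Lox. Without late mouse 4, 10 of the 10 genes were called lower, Postn with a log2 fold change of -3.68 (edgeR adjusted p = 0.00044) and Tnc of -5.00 (edgeR adjusted p = 0.000338). Without each of the other 6 mice, 0 to 2 genes were called. Calls over all genes also moved with the mouse left out, so the 13.0% above is not the background of these counts. Their range over all genes is given further on. Tgfb1 was not called without late mouse 1 (log2 difference -1.23, edgeR adjusted p = 0.0519), 2 (log2 difference -1.23, edgeR adjusted p = 0.0523) or 3 (log2 difference -1.39, edgeR adjusted p = 0.0570) or mouse 1 (log2 difference -1.42, edgeR adjusted p = 0.0511) or 2 (log2 difference -1.20, edgeR adjusted p = 0.0872) at 6d, and Acta2 was not called without the last of these (log2 difference -1.26, edgeR adjusted p = 0.0533). With all 7 mice DESeq2 called 6 of the 10 as lower, adding Tnc, Thbs2, Lox and Loxl2. Of the tissue markers, 3 of 6 for tendon, 4 of 6 for bone and 2 of 5 for pericytes were called higher late than at 6d, and 2 of 8 for macrophages and 1 of 8 for fibroblasts lower.

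Several pathway genes fell with them. Of 22 TGF-beta pathway genes 9 fell and 3 rose, among them Tgif1 (-1.77 ± 0.17, adjusted p = 0.00590 in edgeR) and Tgfb2 (-1.12 ± 0.19, adjusted p = 0.0122) as lower and Smad7 (1.16 ± 0.15, adjusted p = 0.00846) as higher. Of 20 collagen processing genes 4 fell and 0 rose, Plod3 (-0.72 ± 0.15, adjusted p = 0.0188 in edgeR), P4hb (-0.86 ± 0.20, adjusted p = 0.0247), Adamts14 (-1.96 ± 0.52, adjusted p = 0.0330) and Loxl3 (-1.64 ± 0.51, adjusted p = 0.0490). Of the 20 other matricellular genes 3 rose and 2 fell, of the 14 matrix receptors 3 rose and 1 fell, Itga5 (-1.60 ± 0.34, adjusted p = 0.0189 in edgeR), and of the 12 smooth muscle genes 3 rose and 0 fell, Myh11 among them (1.10 ± 0.28, adjusted p = 0.0296).

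After CFA none of the 10 genes was called at either time. At 1d, 0% of 13944 genes tested were called by edgeR, while 588 had an unadjusted p under 0.05 and DESeq2 called 62, none of the 10 among them. Thbs1 was at 114, 24.3 and 72.5 CPM at 1d and 40.2, 20.1 and 181 CPM at 5d against 10.3, 12.6 and 59.1 CPM in CFA vehicle. The log2 differences were 1.32 ± 0.80 (SE; edgeR adjusted p = 0.924) at 1d and 1.60 ± 0.97 (SE; edgeR adjusted p = 0.548) at 5d, the largest of the 10 genes at both times, with overlapping groups. The value at 5d rested on mouse 3 of that group, and without it Thbs1 had a log2 difference of 0.17, below Postn (1.09) and Fn1 (0.89). Lox was at 38.1, 11.6 and 49.7 CPM at 1d against 5.68, 7.50 and 32.5 CPM in vehicle, a log2 difference of 1.08 ± 0.77 (SE; edgeR adjusted p = 0.924). At 5d, 1.06% of 14026 genes tested were called higher and 0.0428% lower, and the other 9 genes differed from vehicle by -0.01 (Sparc) to 0.58 (Fn1) on the log2 scale. Those small values also depended on single mice. The log2 difference of Postn, 0.55 with all 6 mice, was -3.23 without mouse 1 of 5d, 4.08 without CFA vehicle mouse 3 and 2.997 with summed salivary gland and bone markers as covariates in a shared fit, and it was not called in any of these. Without CFA vehicle mouse 3, the highest of its group for both, Thbs1 (log2 difference 2.92, edgeR adjusted p = 0.0389) and Tnc (log2 difference 2.46, edgeR adjusted p = 0.0137) were called higher at 5d. A larger share of all genes was called in that fit than with all 6 mice, so the 1.06% above is not its background. Postn was at 10.2, 171 and 407 CPM at 1d and 642, 13.6 and 19.4 CPM at 5d, each group spanning over an order of magnitude. A block for the replicate number gave 1 called gene at 1d, and it was none of the 10.

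After 0.2U Col none of the 10 genes was called either. In the 1C group 0% of 14493 genes tested were called by edgeR, while 1820 had an unadjusted p under 0.05 and DESeq2 called 513, none of the 10 among them. Lox was at 26.0, 30.5, 62.0 and 46.0 CPM in the 1C mice, all above the vehicle mice, as 4.35% of all genes tested were, with a log2 difference of 1.22 ± 0.43 (SE; edgeR adjusted p = 0.329). Thbs1 was at 38.7, 79.7, 264 and 165 CPM (log2 difference 1.27 ± 0.70, edgeR adjusted p = 0.492) and Tnc at 63.4, 150.2, 193 and 142 CPM (log2 difference 1.07 ± 0.63, edgeR adjusted p = 0.510), with overlap in both. In the RPC group 0% of 14269 genes tested were called, with 1924 at an unadjusted p under 0.05 and 381 called by DESeq2, none of the 10 among them. There the log2 differences of the 10 genes lay between -0.13 (Thbs2) and 0.44 (Thbs1), and all 10 overlapped with vehicle. Postn was at 419.8, 405, 216 and 510.0 CPM in 1C and 883, 376, 58.5 and 326 CPM in RPC.

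**Figure D4:**
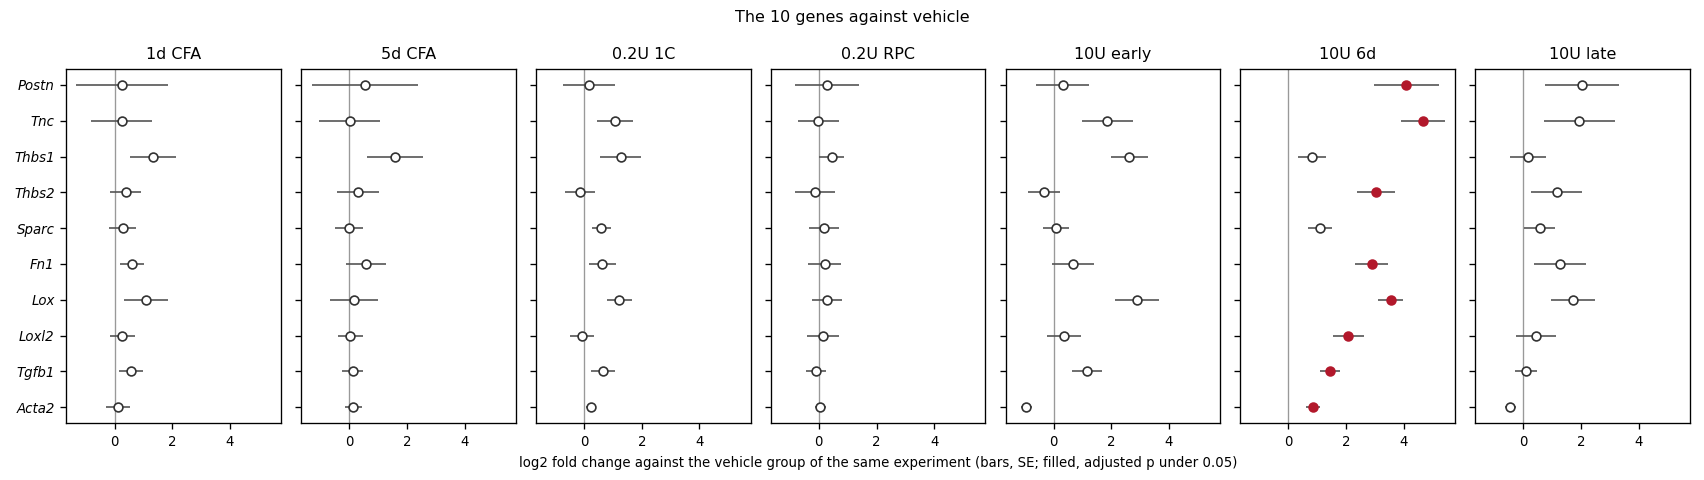
log2 fold changes of the 10 genes against the vehicle group of the same experiment (points, with SE as bars; filled at an adjusted p under 0.05), in 7 panels for CFA, 0.2U Col and 10U Col groups. Filled points appear in the panel of 6d post-10U Col alone, where 8 genes pass and 14.0% of all genes tested were called higher. Lox and Thbs1 lie to the right of 0 in the early 10U panel with their adjusted p above the threshold.

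Whether the changes after 10U Col differed from those after CFA was tested as an interaction over both experiments. Beyond each vehicle group, experiment and treatment cannot be told apart in it, and the second times were 5d and 6d. The salivary list summed to 130677 to 162819 CPM at 5d post-CFA and 11.1 to 33.7 CPM at 6d post-10U. A fit with salivary gland and bone markers together as covariates is given further on. The part of the salivary list alone in the differences was not tested. At the first times (1d post-CFA and early 10U), none of the 10 genes differed, and 0.0946% of 14794 genes tested did. The largest value was that of Lox, whose log2 change after CFA minus that after 10U Col was -1.76 ± 1.15 (SE; edgeR adjusted p = 0.764). At the second times (5d post-CFA and 6d post-10U), 11.3% of 14892 genes tested differed, and none of the 10 did. Tnc (-4.66 ± 1.48; edgeR adjusted p = 0.0638) and Lox (-3.37 ± 1.06; edgeR adjusted p = 0.0635) came nearest, with a smaller change after CFA. The calls at 6d post-10U and their absence at 5d post-CFA therefore do not show a difference between the treatments by this test. DESeq2 called 2 of the 10 genes, Lox and Loxl2, as differing here, and more of all genes than edgeR. Single mice also moved the number of the 10 genes that differed and the calls over all genes, with counts given further on. Without mouse 1 of 5d post-CFA, Fn1 (log2 difference -3.58, edgeR adjusted p = 0.0359) and Lox (log2 difference -4.48, edgeR adjusted p = 0.0306) differed. Without CFA vehicle mouse 1, Tnc (log2 difference -5.22, edgeR adjusted p = 0.0402) and Lox (log2 difference -3.83, edgeR adjusted p = 0.0448) did. Without Col vehicle mouse 3 it was Tgfb1 (log2 difference -1.76, edgeR adjusted p = 0.0371).

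The order of group means was led by 6d post-10U Col for 9 of the 10 genes, and by the early 10U group for Thbs1. For Tnc and Thbs2 the 6d group lay apart from the group next in order, the late group, and for the other genes the first 2 groups overlapped. Levels between genes were compared as RPKM over all annotated exons, and again with the longest coding transcript as the length. In Col vehicle mice, Sparc had the highest mean of the 10 genes with either length (386 and 565 RPKM) and Lox the lowest (3.84 and 4.04 RPKM). At 6d post-10U Col, Sparc (816 RPKM over all exons) and Postn (765 RPKM) were the highest, in an order that turned with the longest transcript (1194 and 1872 RPKM). Thbs1 was the lowest at 6d (17.0 and 17.7 RPKM).

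The genes most like each of the 10 over the 9 group means of log2 CPM were found by Pearson's r among 13506 genes with a mean of at least 1 CPM, and these r describe 9 points that share libraries. For Postn they were Ccdc112 (0.994), Col5a2 (0.990), Sh3pxd2b (0.987), and for Tnc Bmp1 (0.991), Sh3pxd2b (0.991), Col5a2 (0.990). For Thbs2 they were Pdlim4 (0.989), Bnc2 (0.984), Lrrc17 (0.984), for Sparc Kctd12 (0.982), Col1a2 (0.979), Dzip1 (0.978), and for Fn1 Rab31 (0.987), Sfrp1 (0.986), Fam171b (0.986). For Lox they were Snx7 (0.989), Ppfibp1 (0.988), Zfp90 (0.986), for Loxl2 Col5a1 (0.988), Fam171b (0.987), Col18a1 (0.981), and for Tgfb1 Frmd4a (0.993), Map4k4 (0.989), Myh10 (0.986). Thbs1 and Acta2 were nearest to other genes, Vps4b (0.966), Fam57a (0.964), Atg3 (0.959) and Duoxa1 (0.963), Rab43 (0.963), Glb1l (0.954). Col5a2 and Sh3pxd2b stood in the lists of both Postn and Tnc, and Fam171b in those of both Fn1 and Loxl2.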

How the data were processed

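RNA-seq libraries of masseter muscle from 31 mice were analysed, 1 library per mouse, in the 9 groups given by the sample titles. Per the submitters' processing notes, reads were processed with bcl2fastq, TopHat2 and HTSeq on build mm9, and the authors deposited 1 table per library with raw counts of reads per gene symbol, not normalized. Each table ends in 5 summary lines, which were left out of library sizes. They served for the share of ambiguous reads, taken relative to the reads counted on genes. The strand setting and annotation of the counting are not given in the sources used here. Symbols were joined to GENCODE vM1 (21627 by symbol, 52 by synonym) for positions and lengths. Reads that align to several places are not counted, and of windows of 50 bases 1.20% of Loxl2 and 0.404% of Acta2 occur in another gene.

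Counts were tested with edgeR 4.0.16 in R 4.3.3 (TMM scaling, quasi-likelihood test, a minimum of 10 counts in 3 or more of the libraries compared, Benjamini-Hochberg adjustment over all genes tested, calls at an adjusted p under 0.05), each group against the vehicle group of its experiment. The standard error was taken as |log2 fold change|/√F. DESeq2 1.42.0 was an alternative, as was a call that also needs a fold over 2 and an RPKM over 1, the thresholds of the study. The 10 genes and all gene lists were chosen with earlier results of these data known. Besides the 10 genes, the text names up to 4 called genes with the smallest adjusted p of each list and 3 genes of most similar pattern for each of the 10. 1 gene that this rule names is not reported here. Same-numbered mice are different animals. Their deviations from group means correlated with r of 0.163 to 0.591 over 3 pairs between 1d CFA and CFA vehicle and 0.114 to 0.678 between the vehicle groups, all above 0.1, and in no other comparison were all pairs above 0.1. No pair of libraries among 465 was identical. In simulated counts, where 200 genes were shifted by a log2 value of 3, 187 were recovered with 15 of 202 calls wrong for the 1d CFA design (14046 genes), and 180 with 19 of 199 wrong for the 6d 10U design (13994 genes).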

Additional observations from a re-analysis of the deposited data

Results flagged for a closer look

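A mouse was singled out where the gap between the highest or lowest mouse of a group of 4 and its nearest neighbour exceeded, as a share of the group's range, Dixon's 95% critical value for 4 samples. Over 40 pairs of gene and group tested this happened 8 times, and for normally distributed values chance gives about 1 in 20, or 2 of 40. The CPM were not log-transformed and spread widely in several groups, so this rate may be too low here. In 6 of the 8 it was late 10U mouse 4, so these are not independent: Postn was at 4069 CPM there against at most 579 CPM in the other 3 mice, Tnc at 811 against 60.7 CPM, Thbs1 at 136 against 45.6 CPM, Thbs2 at 357 against 69.3 CPM, Fn1 at 1436 against 331 CPM, and Lox at 147 against 34.7 CPM. Loxl2 was at 129.6 CPM in RPC mouse 1 against at most 54.4 CPM in the other 3 RPC mice. Acta2 was at 79.8 CPM in early 10U mouse 1 against at least 107 CPM in the other 3 early mice. Groups of 3 mice were not examined in this way.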

How the results depend on the processing

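With the main settings the calls over all genes numbered 0 for 1d CFA, 155 for 5d CFA, 0 for 1C, 0 for RPC, 319 for early 10U, 3900 for 6d 10U, 174 for late 10U, 1267 for 6d against early, 3785 for late against 6d, 6 for the vehicle groups, 14 for the first interaction and 1684 for the second interaction. The number called among the 10 genes was 8 at 6d 10U, 3 for 6d against early, 2 for late against 6d and 0 elsewhere. Counts that moved by over 1.5 times follow, and all others stayed within that. The study's thresholds of fold and RPKM gave 2197 for 6d 10U, 114 for late 10U, 755 for 6d against early and 1391 for late against 6d over all genes. DESeq2 gave 62 for 1d CFA, 911 for 5d CFA, 513 for 1C, 381 for RPC, 3318 for early 10U, 899 for late 10U, 2752 for 6d against early, 73 for the vehicle groups, 105 for the first interaction and 2739 for the second interaction over all genes, and 3 for early 10U, 8 for 6d against early, 6 for late against 6d and 2 for the second interaction among the 10 genes. Size factors of DESeq2 in edgeR gave 1 for early 10U among the 10 genes. 1 fit shared by all 31 libraries gave 38 for 5d CFA, 137 for 1C, 4942 for early 10U, 778 for late 10U, 57 for the vehicle groups and 97 for the first interaction over all genes, and 3 for early 10U and 5 for late against 6d among the 10 genes. Pooling both vehicle groups gave 0 for 5d CFA, 287 for 1C, 17 for RPC, 5043 for early 10U, 5875 for 6d 10U and 450 for late 10U over all genes, and 3 for early 10U among the 10 genes. Fits without a low-count filter moved none of these counts by that much.

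Apart from 1d CFA and the vehicle groups, where same-numbered mice deviated together, the mice share only a number. A replicate block gave 1 for 1d CFA, 1 for 1C, 10 for RPC, 4500 for early 10U, 1473 for 6d 10U, 43 for late 10U, 2208 for 6d against early, 7056 for late against 6d, 0 for the vehicle groups and 162 for the first interaction over all genes, and 5 for early 10U, 3 for 6d 10U, 5 for 6d against early and 10 for late against 6d among the 10 genes. Where a group of 4 meets a group of 3, mouse 4 is alone in its block and adds nothing to the contrast, so these fits also leave it out. Leaving out mouse 4 alone gave 5 for early 10U, 7 for 6d against early and 10 for late against 6d among the 10 genes. The block moved no other count by over 1.5 times.

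Leaving out each mouse in turn gave 0 to 19 for 1d CFA, 0 to 2162 for 5d CFA, 0 to 202 for 1C, 0 to 1 for RPC, 12 to 5143 for early 10U, 809 to 5857 for 6d 10U, 41 to 600 for late 10U, 126 to 4105 for 6d against early, 234 to 7687 for late against 6d, 0 to 12 for the vehicle groups, 4 to 104 for the first interaction and 564 to 2658 for the second interaction over all genes. Among the 10 genes it gave 0 to 2 for 5d CFA, 0 to 5 for early 10U, 2 to 9 for 6d 10U, 3 to 7 for 6d against early, 0 to 10 for late against 6d and 0 to 2 for the second interaction, and 0 throughout for the others. With 1 mouse of a group left out, 2 or 3 remained.

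Among single-gene values with a log2 change of at least 0.9 or from the 6d comparisons, 907 kept direction and side of the threshold, 95 passed it in addition, 32 lost it and 8 turned. Late against vehicle turned without late mouse 4 for Tnc (-0.29 to 2.43 over all mice left out), Thbs2 (-0.10 to 1.56) and Fn1 (-0.044 to 1.58). For 6d against early, Lox turned to -0.23 and Tgfb1 to -0.39 without the libraries rich in salivary gland genes, and Tgfb1 turned without early mouse 4 (-0.0015 to 0.65 over all mice left out). Tnc in the first interaction turned to 0.14 without those libraries and also without CFA vehicle mouse 3 (-2.37 to 0.78 over all mice left out).

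3 alternatives were chosen after seeing the data. Adding summed salivary gland and bone markers to that shared fit as covariates gave 0 for 5d CFA, 241 for 1C, 4992 for early 10U, 934 for late 10U, 41 for the vehicle groups, 97 for the first interaction and 607 for the second interaction over all genes, and 4 for early 10U, 7 for 6d against early, 9 for late against 6d and 1 for the second interaction among the 10 genes. Leaving out genes with an exon overlap on the opposite strand gave 31 for early 10U, 59 for late 10U and 4 for the first interaction over all genes. Leaving out the libraries over 10000 CPM of salivary gland markers gave 5 for late 10U, 212 for the vehicle groups and 0 for the first interaction over all genes, and 7 for the vehicle groups among the 10 genes. That last one could not be run for 5d CFA, RPC and the second interaction, since it leaves 0 mice at 5d CFA and in RPC, nor for early 10U against vehicle, since it leaves 1 mouse in each. In the other comparisons these lone mice were assumed to vary like the others. The cause of these moves was not tested, apart from the smaller number of mice or genes that leaving out gives by construction. Groups of 3 or 4 mice with wide spread, vehicle mice shared between comparisons, salivary gland RNA in 14 libraries and a higher ambiguous share in the 10U libraries limit these values.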
